A study of Arabidopsis thaliana with 9 samples.

Results

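CCA1, LHY and the REVEILLE (RVE) genes encode a small family of single-repeat MYB transcription factors at the core of the plant circadian clock. The members were chosen by family and gene identifier, with earlier results of these data known: CCA1 (AT2G46830), LHY (AT1G01060), RVE1 (AT5G17300), RVE2 (AT5G37260), RVE3 (AT1G01520), RVE4 (AT5G02840), RVE5 (AT4G01280), RVE6 (AT5G52660), RVE7 (AT1G18330) and RVE8 (AT3G09600). All 10 members were among the 33602 gene models counted, and all 10 passed the filter on low counts that left 22719 genes for testing. In assembly TAIR10.1, the protein-coding genes the results turn on lie at chr2:19245591-19248915, plus strand (CCA1), chr1:33365-37871, minus strand (LHY), chr1:6305814-6308243, minus strand (RVE7), chr5:14751344-14753088, minus strand (RVE2), chr5:21359001-21362273, minus strand (RVE6), and chr5:5690225-5692992, minus strand (RVE1).

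In Arabidopsis, CCA1 and LHY accumulate around dawn and repress genes expressed in the evening, among them TOC1 and GI, by binding a short promoter sequence called the evening element. RVE8 and its close relatives RVE4 and RVE6 bind the same element and activate those evening genes, acting together with the LNK proteins. RVE1 and its relatives RVE2 (also called CIR1) and RVE7 (also called EPR1) act mainly on clock outputs, and RVE1 is known for linking the clock to auxin synthesis.

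Polyadenylated RNA from Arabidopsis thaliana seedlings grown in vitro was sequenced in 9 libraries, 3 biological replicates in each of 3 groups. The groups were wild type (WT), plants in which RNA interference was meant to silence the long noncoding RNA ASCO (AT1G67105; RNAi-ASCO), and plants made to overexpress ASCO (35S-ASCO). The 35S promoter is active in most plant cells, and the labels also describe 35S-ASCO as a promoter trap. The WT and 35S-ASCO libraries and RNAi-ASCO replicate 3 are labelled 16 days old, while RNAi-ASCO replicates 1 and 2 are labelled 4 days, so labelled age and genotype cannot be told apart for those 2 libraries. The accession, the number of independent lines and the time of day of collection are not given in the sources used here.

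Between 27044702 and 126355312 read pairs were counted in a library, and 3 pairs correspond to between 0.0237 and 0.111 CPM (counts scaled to library size). ASCO itself had a level of 4.22 ± 2.09 CPM in WT (SD, n = 3). More of it, not less, was counted in the RNAi-ASCO libraries, 19.7 ± 3.01 CPM, and in the 35S-ASCO libraries it reached 3616 ± 67.1 CPM. Every direction given for RNAi-ASCO refers to the libraries so labelled. Leaf photosynthesis genes were abundant in every group: the summed level of 10 shoot markers ranged from 20942 to 24140 CPM in WT, from 22559 to 23605 CPM in RNAi-ASCO and from 21384 to 22816 CPM in 35S-ASCO. The summed level of 11 root markers ranged from 124 to 126 CPM in WT, from 110 to 120 CPM in RNAi-ASCO and from 107 to 124 CPM in 35S-ASCO. The summed level of 3 floral markers was at most 1.72 CPM in any library. In whole seedlings, fewer cells of a type and less RNA per cell cannot be told apart.

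The promoters of 3 members are shown: those of CCA1 and LHY, because the pair stands at the centre of the loop, and that of RVE7, because it was the member with the largest difference between groups that passed the test. Each run is the 250 bases before the annotated gene start, 5′ to 3′ on the strand of the gene, from the RefSeq sequence of assembly TAIR10.1. Capitals mark the G-box CACGTG, the TCP site GGNCCCAC and the evening element AAAATATCT.
CCA1 (chr2:19245341-19245590, plus strand): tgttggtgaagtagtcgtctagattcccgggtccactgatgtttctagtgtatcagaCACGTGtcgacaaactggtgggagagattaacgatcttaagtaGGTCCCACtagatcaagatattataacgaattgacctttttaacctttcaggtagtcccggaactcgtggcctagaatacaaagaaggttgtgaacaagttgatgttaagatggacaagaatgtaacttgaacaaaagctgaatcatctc
LHY (chr1:37872-38121, minus strand): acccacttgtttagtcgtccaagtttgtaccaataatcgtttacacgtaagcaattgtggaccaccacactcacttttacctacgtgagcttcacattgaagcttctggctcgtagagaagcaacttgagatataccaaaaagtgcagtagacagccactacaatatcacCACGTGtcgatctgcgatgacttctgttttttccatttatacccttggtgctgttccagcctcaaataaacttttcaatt
RVE7 (chr1:6308244-6308493, minus strand): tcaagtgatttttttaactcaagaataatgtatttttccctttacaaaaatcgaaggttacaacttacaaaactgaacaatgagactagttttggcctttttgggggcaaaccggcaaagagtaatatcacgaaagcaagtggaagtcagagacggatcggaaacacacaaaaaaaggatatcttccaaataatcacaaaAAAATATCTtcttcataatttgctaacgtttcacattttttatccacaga

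A search for 6 motifs covered both strands of the 500 bases before each gene start: the evening element, the CCA1-binding site AAAAATCT, the G-box, the LUX-binding sites GATTCG and GATACG, and the TCP site. No matches overlapped each other among the clock genes. The G-box, bound by light-signalling factors, was found in 6 of 10 members (CCA1, LHY, RVE3, RVE5, RVE1 and RVE2), against 9.35% of 27443 promoters of protein-coding genes. The evening element was found in 1 of 10 members, RVE7, where it occurred at 2 places, against 4.44% of all promoters. The CCA1-binding site was found in 3 of 10 members (LHY, RVE6 and RVE2), against 12.5% of all promoters. Of the LUX-binding sites, GATTCG was found in 0 of 10 members and 15.4% of all promoters, and GATACG in 2 of 10 (RVE4 and RVE7) and 8.76%. The TCP site, named for the family of the CCA1 regulator CHE, was found in CCA1 alone among the members and in 1.54% of all promoters. A match is a description of the sequence and not evidence of binding.

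The evening elements of RVE7 are set beside those of PRR5, TOC1, LUX and FKF1, the clock genes with the element whose values are given with their lists. GRP7 and GRP8 also carry it and also rose in RNAi-ASCO, and BOA and COL2 carry it and did not pass the test. Each is printed with 10 bases on either side on the strand of the gene, and capitals mark the element, which reads AGATATTTT where it lies on the other strand.
RVE7 (chr1:6308542-6308570, minus strand): aagactaaagAGATATTTTgaaatcgaat
RVE7 (chr1:6308275-6308303, minus strand): taatcacaaaAAAATATCTtcttcataat
PRR5 (chr5:8358820-8358848, minus strand): caattctactAGATATTTTttcaaatcca
PRR5 (chr5:8358715-8358743, minus strand): gattttttctAGATATTTTcttttctcca
TOC1 (chr5:24674802-24674830, plus strand): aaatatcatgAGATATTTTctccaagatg
LUX (chr3:17182979-17183007, plus strand): tagaagatctAAAATATCTagctaactcg
FKF1 (chr1:25508256-25508284, plus strand): gcgtttcacaAAAATATCTattatttgac
FKF1 (chr1:25508443-25508471, plus strand): tgagtaggctAGATATTTTctcggaatat

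Among 37 clock genes (the 10 members and 27 others of the PRR, evening complex, GI and ZTL, LNK and output lists), 9 had an evening element in this window. Of these 9, 7 passed the edgeR test (adjusted p under 0.05) as higher in RNAi-ASCO than in WT, and of the 28 without the element 15 did, against 6.96% of all genes. The median log2 fold change was 0.59 with the element and 0.79 without it.

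Levels differed widely between members. Per kilobase of gene model, RVE2 was the most abundant in WT at 101 ± 9.73 CPM per kilobase, followed by RVE4 at 45.9 ± 3.17 and RVE5 at 11.5 ± 0.256 (SD, n = 3). CCA1 was the least abundant at 0.331 ± 0.0777 CPM per kilobase, and LHY stood at 0.647 ± 0.0180. Below RVE5 came RVE6 and RVE1, with overlapping ranges, and then RVE8 and RVE7, also overlapping. At the low end the ranges of RVE3 and CCA1 overlapped. RVE2, RVE4 and RVE5 kept the first 3 places, without overlap, in all 3 groups. By mean level, RVE7 stood below RVE8 in WT, with overlapping ranges, and above it in RNAi-ASCO, without overlap. The place of RVE7 is uncertain, because 65.5% of 50-base windows from its exons occur elsewhere and reads with equally good alignments were removed.

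**Figure D1:**
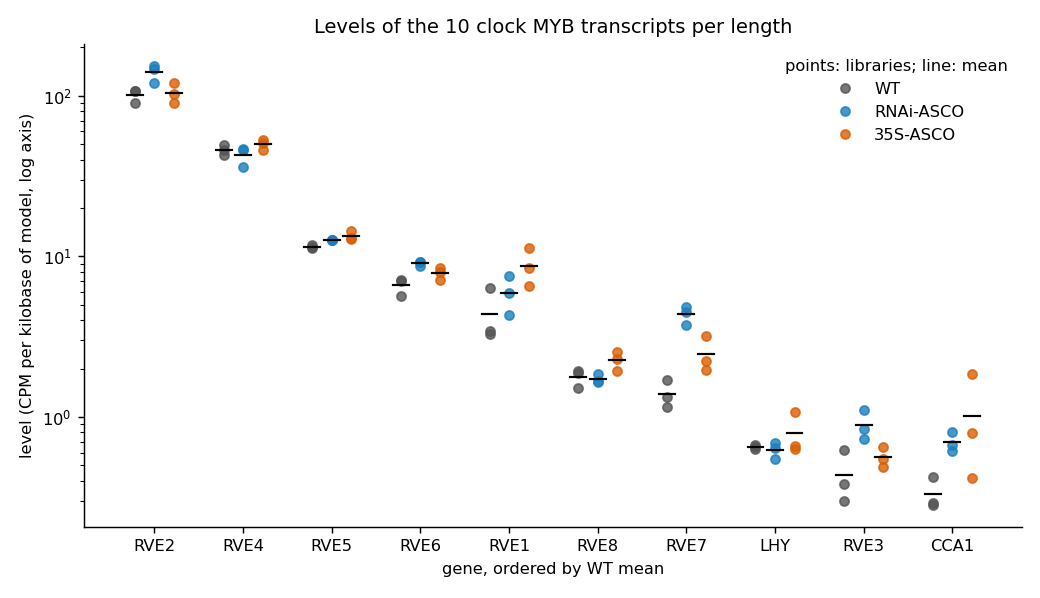
Level of each member per kilobase of gene model (CPM per kilobase, log axis) in each of the 9 libraries, with the mean of each group as a line. RVE2 lies near 100 CPM per kilobase in WT and CCA1 near 0.331, and RVE7 is the member whose 3 RNAi-ASCO points stand farthest above its WT points by ratio.

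TOC1, an evening gene that CCA1 represses, was far more abundant than CCA1 in every library. Per length, the level of TOC1 was between 170 and 265 times that of CCA1 in the WT libraries, between 114 and 151 times in RNAi-ASCO, and 56.6, 117 and 217 times in 35S-ASCO replicates 1, 2 and 3. The WT and RNAi-ASCO ranges of this ratio did not overlap. Of the 35S-ASCO libraries, replicate 1 lay below both ranges, replicate 2 within that of RNAi-ASCO and replicate 3 within that of WT. The ratio rests on few CCA1 pairs, from 26 to 84 in a WT or RNAi-ASCO library. CCA1 itself did not pass the edgeR test between those groups (adjusted p = 0.175). The levels of 32.4% of all genes tested did not overlap between them.

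The first comparison named by the series is RNAi-ASCO against WT, labelled a knock-down although ASCO was higher in these libraries. Here 3 of 10 members rose, all of them RVE genes (RVE7, RVE2 and RVE6), none fell, and 7 did not pass the test (edgeR quasi-likelihood test with p adjusted by the Benjamini-Hochberg method over 22719 genes, threshold 0.05). Among all genes tested, 6.96% rose and 4.82% fell, 11.8% in all. At an unadjusted p under 0.05 there were 6 of 10 members, against 27.5% of all genes. In 6 of 10 members every library labelled RNAi-ASCO lay above every WT library, against 16.9% of all genes, or 32.4% in either direction. The median log2 fold change of the 10 members was 0.44, against -0.01 for all genes tested. Beside this, 4 of 10 shoot markers rose and 1 fell, and 1 of 11 root markers fell. Their part in the members' differences was not tested.

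RVE7, first described as an early phytochrome-responsive gene, showed the largest difference in the family. Its level was 2.17, 1.89 and 2.76 CPM in WT replicates 1, 2 and 3, from 59, 178 and 159 pairs. In RNAi-ASCO replicates 1, 2 and 3 it was 7.94, 7.38 and 6.08 CPM, from 267, 338 and 353 pairs. The lowest library labelled RNAi-ASCO was above the highest of WT, and the highest were the 2 labelled 4 days. RVE7 rose 3.14-fold (95% interval 2.25 to 4.37, log2 fold change 1.65, SE 0.214, edgeR adjusted p = 0.00196). It kept its call in each of the 9 fits that left out 1 library. With RNAi-ASCO replicate 3 as the only library of its group, so that labelled age was the same throughout, the log2 fold change was 1.42 and the edgeR adjusted p = 0.114, with the lone library assumed to vary like the others. RVE7 shares much of its sequence with a pair of other loci: 199 of 304 windows of 50 bases from its exons (65.5%) occur elsewhere, in AT3G10110 and AT3G10113. Because reads with equally good alignments elsewhere were removed, per the file headers, the level of RVE7 is uncertain. AT3G10113 held between 0 and 10 pairs in a library, and AT3G10110 ranged from 3.34 to 4.52 CPM and did not pass the test (log2 fold change -0.08, edgeR adjusted p = 0.711).

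RVE2, a clock-regulated gene whose transcript was the most abundant of the family, was at 88.1, 104 and 105 CPM in the WT libraries and at 144, 150 and 117 CPM in RNAi-ASCO. The groups did not overlap, and RNAi-ASCO replicate 3, labelled 16 days, was the closest to WT. RVE2 rose 1.38-fold (log2 fold change 0.46, SE 0.121, edgeR adjusted p = 0.0365). This call was lost in 6 of the 9 fits that left out 1 library, those without RNAi-ASCO replicate 1 or 2, 35S-ASCO replicate 2 or any WT replicate, with edgeR adjusted p-values up to 0.140. With only the libraries labelled 16 days, which leave 1 of RNAi-ASCO, the log2 fold change of RVE2 was 0.23. RVE1, the auxin-linked member, was at 6.06, 6.33 and 11.7 CPM in WT and at 7.88, 10.9 and 13.8 CPM in RNAi-ASCO. Its groups overlapped because WT replicate 3 stood well above the other WT libraries, and it did not pass the test (log2 fold change 0.43, edgeR adjusted p = 0.380). The RVE1 gene overlaps AT5G17305 on the opposite strand by 225 bases, and whether counting used the strand is not stated.

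In the clade of RVE8, RVE6, an activator of evening genes, was at 10.4, 10.6 and 8.39 CPM in WT and at 13.7, 13.6 and 12.9 CPM in RNAi-ASCO. The groups did not overlap, and the 3 libraries labelled RNAi-ASCO lay close together. RVE6 rose 1.37-fold (log2 fold change 0.45, SE 0.103, edgeR adjusted p = 0.0217). The call was lost without RNAi-ASCO replicate 1 (edgeR adjusted p = 0.0719) and without RNAi-ASCO replicate 2 (0.0814). With only the libraries labelled 16 days, which leave 1 of RNAi-ASCO, the log2 fold change of RVE6 was 0.38. RVE8 itself, the best known activator of the clade, was at 2.49 ± 0.318 CPM in WT and 2.42 ± 0.143 CPM in RNAi-ASCO (95% interval of the log2 fold change -0.39 to 0.28). RVE4 was at 64.9 ± 4.49 and 60.6 ± 8.31 CPM (interval -0.32 to 0.12), and both genes overlapped between the groups. RVE3, a low-expressed member of the clade, was at 0.331, 0.540 and 0.261 CPM in WT and 0.951, 0.633 and 0.723 CPM in RNAi-ASCO. These groups did not overlap, and RVE3 had as few as 9 pairs in a library. The difference did not pass (log2 fold change 0.95, SE 0.309, edgeR adjusted p = 0.0769). It did pass with counts thinned to the smallest library and in 1 of the 9 fits that left out 1 library (edgeR adjusted p = 0.0296). RVE3 overlaps AT1G01510 by 65 bases on the same strand, and that neighbour was at 46.5 to 54.1 CPM, so the RVE3 value is uncertain. RVE5 was at 16.4 ± 0.365 CPM in WT and 18.1 ± 0.109 CPM in RNAi-ASCO (edgeR adjusted p = 0.151). RVE5 overlaps AT4G01290 on the opposite strand by 681 bases. That neighbour was counted at between 143 and 156 CPM, so the RVE5 value is uncertain if counting ignored the strand.

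Of the dawn repressors, CCA1 was at 0.955, 0.657 and 0.643 CPM in WT, from 26, 62 and 37 pairs, and at 1.52, 1.83 and 1.39 CPM in RNAi-ASCO, from 51, 84 and 81 pairs. Every library labelled RNAi-ASCO lay above every WT library. The difference did not pass the test (log2 fold change 1.12, SE 0.496, edgeR adjusted p = 0.175), although it did with only the 6 libraries of this comparison (edgeR adjusted p = 0.0230) and without 35S-ASCO replicate 1 (0.0295). LHY was at 1.80, 1.75 and 1.70 CPM in WT and at 1.49, 1.73 and 1.86 CPM in RNAi-ASCO. These values overlapped (log2 fold change -0.04, 95% interval -0.53 to 0.45, edgeR adjusted p = 0.936). Per length, the ratio of CCA1 to LHY was 0.633, 0.448 and 0.450 in WT and 1.22, 1.27 and 0.894 in RNAi-ASCO, without overlap. In 35S-ASCO replicates 1, 2 and 3 it was 1.71, 1.19 and 0.664, also above every WT library. The ratio rests on the few CCA1 pairs given above, and how often ratios of other genes lie apart was not counted.

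**Figure D2:**
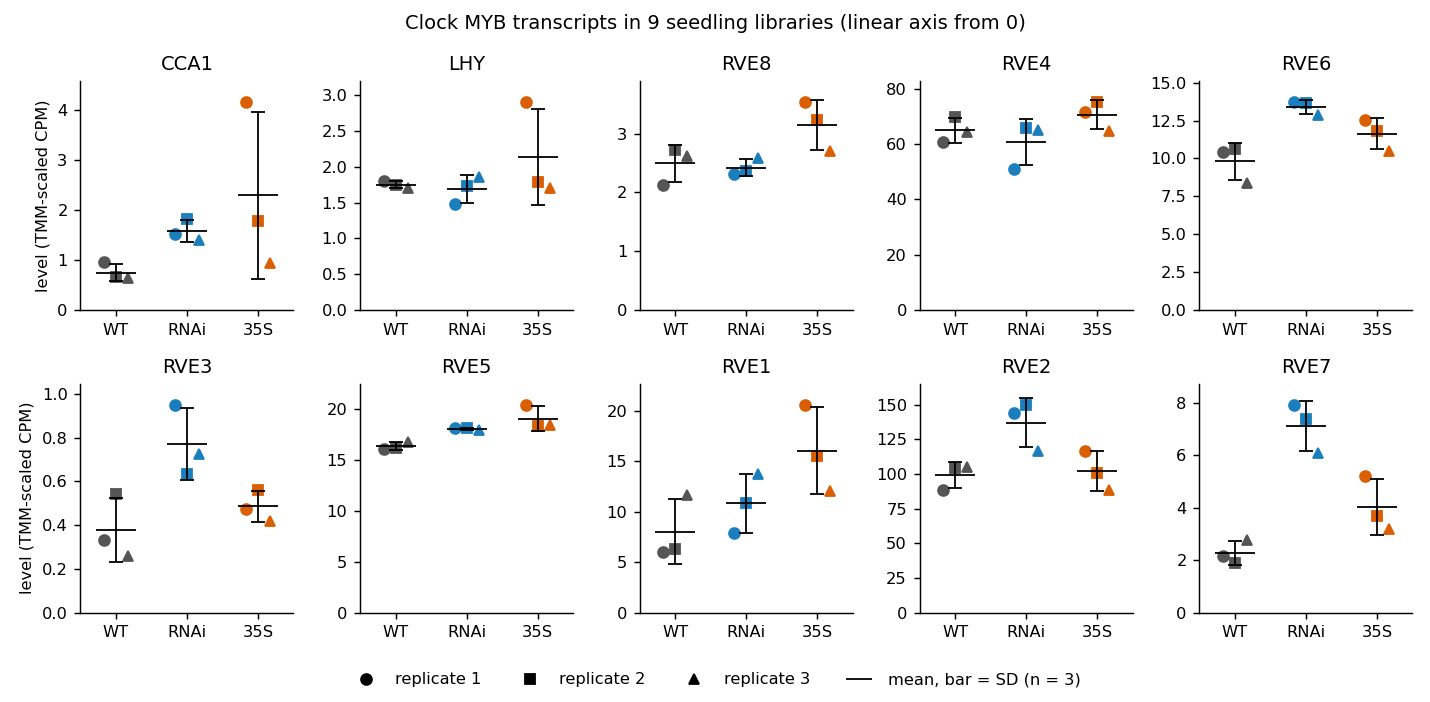
Level of each member (TMM-scaled CPM, linear axis from 0, a scale of its own in each panel) in WT, RNAi-ASCO and 35S-ASCO, with symbols for the replicates and bars for mean and SD (n = 3). RVE7, RVE2 and RVE6 stand higher in RNAi-ASCO, and CCA1 in 35S-ASCO spreads from 0.949 to 4.17 CPM.

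The second comparison named by the series is the overexpressing line against WT. Here 0 of 10 members passed the test (edgeR quasi-likelihood test), where 1.67% of all genes did. Of all genes, 1.36% rose and 0.313% fell. With an unadjusted p under 0.05 there were 5 of 10 members, against 17.4% of all genes. DESeq2 called 2 members, CCA1 and RVE7, but it also called more of all genes, 1301 against 379 by edgeR. All 10 log2 fold changes were positive, between 0.04 and 1.70, with a median of 0.29 against -0.01 for all genes. Of the 22719 genes tested, 10880 were positive. Without 35S-ASCO replicate 1, LHY (-0.0046) and RVE2 (-0.0750) turned negative, and RVE2 also did so without WT replicate 1 (-0.0390). In 3 of 10 members (RVE7, RVE1 and RVE5) all 35S-ASCO libraries lay above all WT libraries, against 11.8% of all genes, or 21.9% in either direction.

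CCA1 had the largest estimate. Its level was 4.17, 1.79 and 0.949 CPM in 35S-ASCO replicates 1, 2 and 3, from 527, 64 and 88 pairs. Replicate 3 lay within the WT range of 0.643 to 0.955 CPM while replicate 1 stood above every other library of the series, the next being RNAi-ASCO replicate 2 at 1.83 CPM. The log2 fold change was 1.70 (SE 0.478, 95% interval 0.63 to 2.76, edgeR adjusted p = 0.106). Without 35S-ASCO replicate 1 it was 0.86 and without replicate 3 it was 2.09, and in the latter fit CCA1 passed the test (edgeR adjusted p = 0.0186). LHY was at 2.91, 1.79 and 1.70 CPM, and apart from replicate 1 it stayed near the WT level of 1.75 ± 0.0486 CPM (edgeR adjusted p = 0.491).

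RVE1 was at 20.6, 15.5 and 12.0 CPM in 35S-ASCO against 6.06, 6.33 and 11.7 CPM in WT. The groups were separated by a narrow gap, between 35S-ASCO replicate 3 and WT replicate 3. The estimate was 1.99-fold (log2 fold change 0.99, SE 0.290, edgeR adjusted p = 0.118). Without WT replicate 3 the log2 fold change was 1.37 and passed the test (edgeR adjusted p = 0.0472). RVE7 was at 5.22, 3.67 and 3.19 CPM, above WT in all 3 libraries (log2 fold change 0.84, SE 0.213, edgeR adjusted p = 0.0814). It passed without 35S-ASCO replicate 3 (edgeR adjusted p = 0.0440) and with DESeq2 (adjusted p = 0.00592). RVE2 was at 117, 101 and 88.3 CPM in replicates 1, 2 and 3 (95% interval of the log2 fold change -0.23 to 0.31). Replicate 1 lay above the WT range of 88.1 to 105 CPM, and replicates 2 and 3 lay within it.

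Among the relatives of RVE8, RVE5 was at 20.5, 18.3 and 18.5 CPM in 35S-ASCO against 16.4 ± 0.365 CPM in WT (log2 fold change 0.22, SE 0.0579, edgeR adjusted p = 0.0859). RVE8 was at 3.15 ± 0.425 CPM, RVE4 at 70.5 ± 5.29 CPM, RVE6 at 11.6 ± 1.03 CPM and RVE3 at 0.485 ± 0.0705 CPM (SD, n = 3). Each of these overlapped WT, and the upper bounds of their 95% intervals lay at log2 fold changes of 0.65, 0.34, 0.47 and 0.96.

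**Figure D3:**
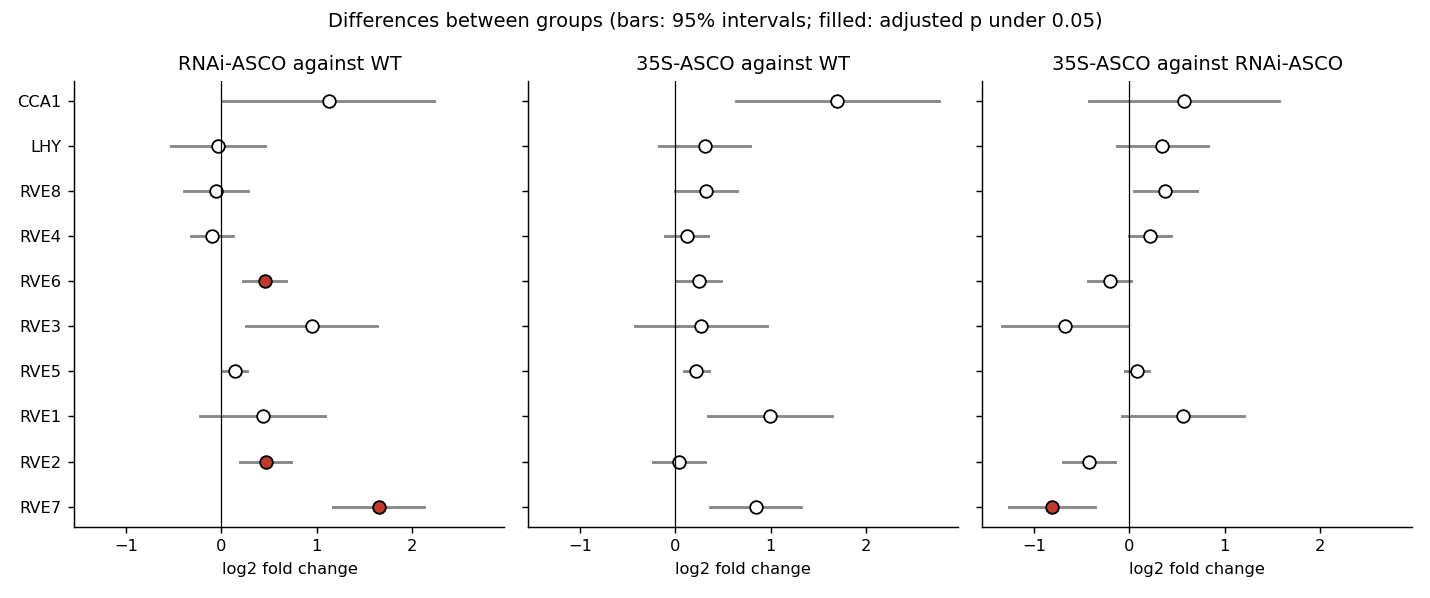
Log2 fold change of each member in the 3 comparisons, with 95% intervals and filled points for an edgeR adjusted p under 0.05. RVE7, RVE2 and RVE6 are filled in RNAi-ASCO against WT, none in 35S-ASCO against WT, and RVE7 in the direct comparison of the lines.

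Within 35S-ASCO the libraries kept much the same order in most members. How often all genes keep this order was not counted, so it is not shown to be particular to the family. Replicate 1 had the highest level of its group in 8 of 10 members and replicate 2 in the other 2 (RVE4 and RVE3), and replicate 3 had the lowest level in 9 of 10. In WT, replicates 1, 2 and 3 were highest in 2, 4 and 4 members, and in RNAi-ASCO in 3, 4 and 3. Replicate 1 of 35S-ASCO was also the most deeply sequenced library, at 126355312 pairs, and replicate 2 of that group had 36087905 and replicate 3 had 92893834, and the part of depth in this ranking was not tested.

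The lines were also compared directly, as a test of whether they differ, since both comparisons with WT share the WT libraries. RVE7 was the only one of 10 members past the threshold, against 6.75% of all genes (3.2% higher and 3.55% lower), and 4 of 10 had an unadjusted p under 0.05, against 22.9% of all genes. Groups were apart in 5 of 10 members, higher in 35S-ASCO for RVE8 and RVE5 and lower for RVE6, RVE3 and RVE7, against 31.4% of all genes. RVE7 was lower in 35S-ASCO at 4.03 ± 1.06 CPM than in RNAi-ASCO at 7.13 ± 0.952 CPM (SD, n = 3), and the groups did not overlap (log2 fold change -0.81, SE 0.202, edgeR adjusted p = 0.0422). This call was lost in 5 of the 9 fits that left out 1 library (without WT replicate 1, RNAi-ASCO replicate 1 or 2, or 35S-ASCO replicate 2 or 3), with edgeR adjusted p-values up to 0.148. RVE7 was highest in the 2 RNAi-ASCO libraries labelled 4 days, at 7.94 and 7.38 CPM. RNAi-ASCO replicate 3, labelled 16 days, was at 6.08 CPM, beside 5.22 CPM in 35S-ASCO replicate 1. With only the libraries labelled 16 days, which leave 1 of RNAi-ASCO, the log2 fold change of RVE7 was -0.59. Beyond that fit, the part of labelled age in this difference was not tested. For RVE2 the log2 fold change (-0.43, edgeR adjusted p = 0.0676) passed the threshold without RNAi-ASCO replicate 3, without 35S-ASCO replicate 1 and with DESeq2. For CCA1 the 95% interval of the difference, -0.42 to 1.57, left both directions possible, and without 35S-ASCO replicate 1 the estimate was -0.27.

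Other clock genes were counted in 6 lists with 36 genes, all of them tested. In RNAi-ASCO 19 of 36 rose and 2 fell (edgeR), against 6.96% of all genes higher and 4.82% lower. In 35S-ASCO 7 of 36 rose and 0 fell, against 1.36% of all genes higher and 0.313% lower. Of the PRR family, repressors that follow CCA1 and LHY through the day, 4 of 5 rose in RNAi-ASCO, with PRR7 2.78-fold (edgeR adjusted p = 0.0012), PRR5 3.01-fold (0.0058) and TOC1 1.27-fold (0.00592) higher. In 35S-ASCO 2 of 5 rose, PRR7 2.30-fold (edgeR adjusted p = 0.0163) and TOC1 1.32-fold (0.0184). Of the evening complex, which represses growth and clock genes at night, ELF4 (1.74-fold, edgeR adjusted p = 0.000618) and LUX (1.76-fold, 0.00142) rose in RNAi-ASCO, and ELF4 rose in 35S-ASCO (1.46-fold, 0.0184).

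Of GI and the ZTL family of photoreceptor F-box proteins, GI rose 5.33-fold in RNAi-ASCO, from 11.6 to 61.0 CPM (edgeR adjusted p = 0.000111), and 2.92-fold in 35S-ASCO (0.00613). FKF1 rose 2.33-fold in RNAi-ASCO (edgeR adjusted p = 0.00753). Of the 4 LNK genes, partners of RVE8 and RVE4 in activation, LNK1, LNK2 and LNK4 rose in RNAi-ASCO by log2 fold changes of 1.66, 0.58 and 1.37 (edgeR adjusted p = 0.00142, 0.0417 and 0.0435), and LNK1 and LNK2 rose 2.27-fold and 1.71-fold in 35S-ASCO (0.0274 and 0.0425). Of 10 output genes, 8 rose in RNAi-ASCO, and those with the smallest p were PIF4 (2.43-fold, edgeR adjusted p = 0.000867), CDF1 (2.87-fold, 0.00361) and PIF5 (1.87-fold, 0.00507). The largest fold among them, named after its value was seen, was that of CDF3 (4.16-fold, edgeR adjusted p = 0.00585). In 35S-ASCO PIF4 rose 1.90-fold (edgeR adjusted p = 0.0184). Of 9 regulators of CCA1 and LHY, 2 subunits of the kinase CK2, which phosphorylates CCA1, fell in RNAi-ASCO (CKA1, log2 fold change -0.20, edgeR adjusted p = 0.0368, and CKB3, -0.23, 0.0431) while 0 of 9 passed in 35S-ASCO (edgeR, with 0 also at an unadjusted p under 0.05, and DESeq2 called neither CKA1 nor CKB3). In the direct comparison LUX and GI were lower in 35S-ASCO (log2 fold change -0.43 and -0.87, edgeR adjusted p = 0.0281 and 0.0134). These were 2 of 36 genes, with 0 higher, against 3.55% of all genes lower and 3.2% higher. Of the 9 fits that left out 1 library, LNK2 and LNK4 in RNAi-ASCO lost their calls in 7, with log2 fold changes of 0.51 to 0.65 and 1.25 to 1.52 over the 9. CKA1 (-0.24 to -0.16) and CKB3 (-0.27 to -0.17) lost theirs in 6. In 35S-ASCO, LNK2 (0.55 to 0.93) lost its call in 8, LNK1 (1.02 to 1.29) in 5, and PRR7, TOC1, ELF4 and PIF4 each in 2. In the direct comparison LUX (-0.50 to -0.39) lost its call in 5 and GI (-1.05 to -0.73) in 3. GI kept its call against WT in all 9 for both lines. With only the libraries labelled 16 days, which leave 1 of RNAi-ASCO, most of the 36 genes did not pass against WT. Far fewer of all genes passed in that fit too. The log2 fold change went from 2.41 to 2.14 for GI and from 0.80 to 0.65 for ELF4. In that fit PRR5 went from 1.59 to 1.005 and CDF1 from 1.52 to 0.93 on the log2 scale.

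**Figure D4:**
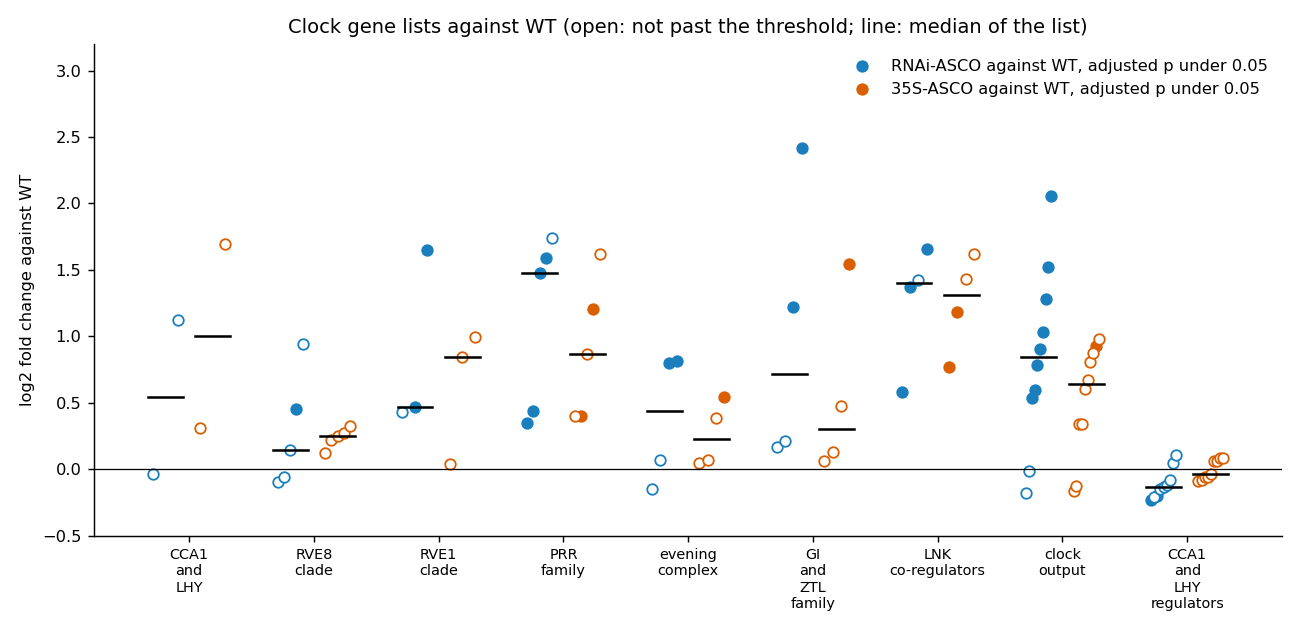
Log2 fold change against WT of each gene in 9 clock lists for RNAi-ASCO (left of each tick) and 35S-ASCO (right), filled where the edgeR adjusted p was under 0.05, with the median of each list as a line. GI in RNAi-ASCO is the highest point at 2.41, and the regulators of CCA1 and LHY lie near 0.

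CCA1, RVE7 and RVE1 varied most over the 9 libraries, with ranges of 2.64, 2.05 and 1.76 on the log2 CPM scale, and RVE5 least at 0.34. For each of these 3, the genes with the most similar pattern were found among 16193 genes with a mean of at least 5 CPM by the root mean square difference of centred log2 CPM over the 9 libraries. For RVE7 the closest was the clock gene PRR5 (0.158), followed by FMO GS-OX1 (0.182), which acts on glucosinolates, MYBL2 (0.183), a repressor of flavonoid synthesis, FMO GS-OX3 (0.191) and STO (0.197), a B-box protein of light signalling. For CCA1 the closest were AT3G04640 (0.223), CNI1 (0.227), AT2G38790 (0.275), WRKY33 (0.288), a regulator of defence genes, and DTX1 (0.298). For RVE1 they were MAKR6 (0.154), AT2G44130 (0.176), IAA1 (0.199), an early auxin-response gene, AT4G20820 (0.206) and HAT2 (0.206), a homeobox gene that auxin induces. Within the family the most similar were RVE8 and RVE4 (0.144), and the least similar were RVE4 and RVE7 (0.774).

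**Figure D5:**
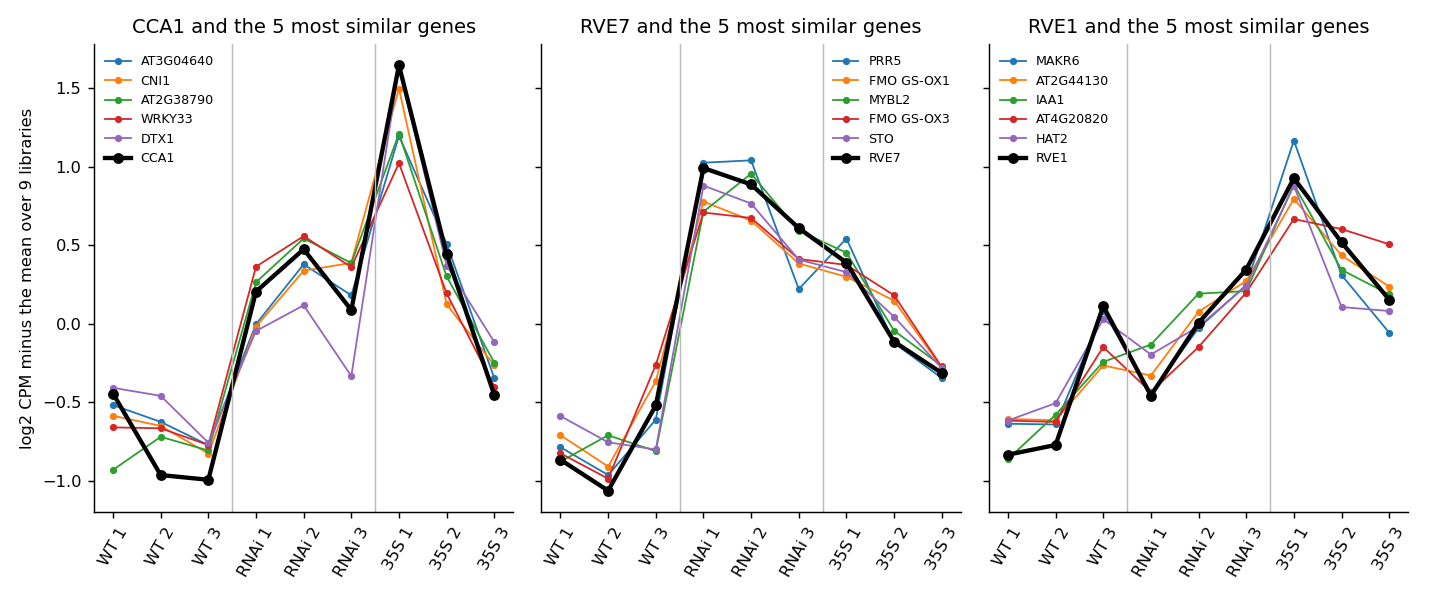
Log2 CPM minus the gene's mean over the 9 libraries for CCA1, RVE7 and RVE1 (black) and the 5 genes closest to each. Lines only link the points of a gene. CCA1 and its neighbours are highest in 35S-ASCO replicate 1, RVE7 and its neighbours are highest in RNAi-ASCO replicates 1 and 2, and RVE1 is lowest in WT replicates 1 and 2.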

How the data were processed

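Per the labels' protocols, polyadenylated RNA was sequenced as stranded paired-end TruSeq libraries. The deposited counts of read pairs per gene model were made by the authors with sam2pkm, per the file headers: singletons were treated as unmapped, no insert size limit was set, and reads with equally good alignments were removed. TopHat2, Bowtie2 and TAIR10 are named in the submitters' processing notes. Deposited model lengths (a column of other numbers, in bases) gave levels per kilobase.

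Pair counts of all 9 libraries were fitted together in edgeR 4.0.16 (R 4.3.3; glmQLFit, glmQLFTest) with TMM scaling, the filterByExpr filter and no factor besides genotype. P-values were adjusted over all 22719 genes kept, and 0.05 was the threshold. Levels are TMM-scaled CPM. DESeq2 1.42.0 was an alternative. The script was tested on simulated data. No libraries of a group agreed within sampling noise (counts differed by at least 7.07 times the sampling variance). Promoters, exons and overlaps came from TAIR10.1, and model lengths matched a RefSeq transcript in 1 of 10 members. Exon windows of 50 bases were taken every 10 bases. For similar patterns, a prior count of 2 was added before taking log2 CPM.

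The members and lists were chosen with earlier results of these data known. All members were named. Of each clock list up to 3 genes past the threshold were named per comparison, by smallest p, and for the 3 members with the widest range the 5 most similar genes. The floor of 3 pairs covers counting error only, and intervals of fold changes cover the spread between replicates. The alternatives are given in the closing section.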

Additional observations from a re-analysis of the deposited data

Results flagged for a closer look

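RVE7 differed between the lines by a test of the difference itself, as 6.75% of all genes did. RNAi-ASCO replicates 1 and 2 are labelled 4 days and all 35S-ASCO libraries 16 days. Line and labelled age cannot be told apart for those 2 RNAi-ASCO libraries. The log2 fold change of RVE7 in 35S-ASCO against RNAi-ASCO was -0.81 (edgeR adjusted p = 0.0422), with both lines above WT in all 3 of their libraries. Over the alternatives this difference ranged from -1.07 to -0.59, with adjusted p-values from 0.00288 to 0.675.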

How the results depend on the processing

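The number of members past the threshold in RNAi-ASCO against WT (3) was 1 at an adjusted p of 0.01, 0 with the libraries labelled 16 days alone, 4 with only the 6 libraries compared (CCA1 added) and with thinned counts (RVE3 added), and from 1 to 4 when 1 library was left out. In 35S-ASCO against WT (0) it was 2 with DESeq2 and from 0 to 2 when 1 library was left out. In 35S-ASCO against RNAi-ASCO (1) it was 0 at an adjusted p of 0.01, with counts thinned to the smallest library and with the libraries labelled 16 days alone, 2 with DESeq2, and from 0 to 2 when 1 library was left out. The replicate numbers did not pair the libraries (correlations of same-numbered deviations from -0.0232 to 0.0763 over 9 pairs), and with the replicate block the counts of members were 3, 0 and 1. Other scalings and filters and the single-read counts, the last chosen after seeing the data, left all 3 counts as they were. Over all genes, the counts of 2677, 379 and 1534 became 791, 18 and 397 when the threshold was 0.01, while the libraries labelled 16 days gave 103 for RNAi-ASCO against WT and 80 for the direct comparison. Leaving out 1 library gave 995 to 3025, 25 to 611 and 432 to 1928. For 35S-ASCO against WT, DESeq2 called 1301 genes and the 6 libraries compared gave 64. For the direct comparison DESeq2 called 2171 genes.

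Of 587 member values over 20 alternatives, 543 kept direction and side of the threshold, 21 fell below it, 12 came past it and 11 changed sign. Another 5 sign changes concerned CDF1, CKB3, TOC1, LNK2 and LNK4, which are not members. None of the values that changed sign passed the test in either fit. With only libraries labelled 16 days, RNAi-ASCO against WT gave 0.0902 for LHY, 0.0369 for RVE8 and 0.0014 for RVE4, and 35S-ASCO against RNAi-ASCO gave 0.0543 for CDF1. Thinned counts gave 0.0760 for RVE8 in RNAi-ASCO. When 1 library was left out, log2 fold changes ranged in RNAi-ASCO against WT from -0.114 to 0.0387 for LHY, -0.142 to 0.0130 for RVE8 and -0.163 to 0.00868 for RVE4. In 35S-ASCO against WT they ranged from -0.0046 to 0.462 for LHY, -0.0750 to 0.133 for RVE2 and -0.0948 to 0.00444 for CKB3. In 35S-ASCO against RNAi-ASCO they ranged from -0.271 to 0.962 for CCA1, -0.0205 to 0.0879 for TOC1, -0.0321 to 0.350 for LNK2 and -0.289 to 0.568 for LNK4. The causes of these changes were not tested, and the fits that left libraries out also had fewer of them. The shallowest library limits CCA1 and RVE3, with 26 and 9 pairs in WT replicate 1.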
